A study of Mus musculus with 4 samples.

Results

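The genes that copy DNA and supply its building blocks were read in embryonic mouse hearts that lack Salvador and in control hearts. The set was a fixed list of 35 genes, of which 34 were found by symbol among the 16675 genes of the array (Gins2 was not). They were split by step into 4 licensing genes, 11 helicase genes, 14 genes of the polymerases and their clamp, 4 genes of nucleotide synthesis, and a pair that acts on histone mRNA (Slbp) and DNA methylation (Uhrf1). Each array was hybridised with amplified, Cy5-labelled RNA of pooled whole hearts at embryonic day 9.5, from mice of a C57bl/6 x129 hybrid strain. There were 2 Salv CKO pools, in which Salvador (Sav1) was knocked out conditionally; its protein is the scaffold that brings together the kinases of the Hippo growth-control pathway. They were set against 2 control pools, labelled wild-type. Neither the number of hearts in a pool, nor the Cre line, nor the Cre status of the controls is stated in the sources used here.

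Replication is prepared in G1 phase, when the origin recognition complex, Cdc6 and Cdt1 load the Mcm helicase onto DNA. In S phase Cdc45 and the GINS complex switch the helicase on, DNA polymerase alpha with its primase lays down primers, and the replication factor C complex loads the ring-shaped clamp Pcna for the polymerases that extend them. Ribonucleotide reductase, thymidylate synthase and thymidine kinase make the deoxynucleotides. Many of these genes are known to be transcribed under E2F factors as cells enter S phase. The embryonic heart grows by division of its muscle cells, which the Hippo pathway restrains by holding back the coactivator Yap.

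All values are log2 probe intensities after quantile normalisation, with 1 probe per gene, and each difference is Salv CKO minus control with its standard error from limma (n = 2 pools per group). A gene was called at a limma adjusted p (Benjamini-Hochberg over all 16675 genes) under 0.05, and above background means an intensity over 16. Of the measured members, 32 were above background on all 4 arrays. Sav1 itself was at 9.19 and 9.13 in the Salv CKO pools and at 9.56 and 9.30 in the controls, a difference of -0.27 ± 0.13 with no call (limma adjusted p = 0.266). The sources used here do not say whether its probe lies in the deleted part, so the labels remain unchecked by it. All 12 heart muscle markers were above background on every array. For a single gene the smallest p of an exact permutation test with 2 pools a group is 0.333, so every call draws on the pooled variance estimate of limma.

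In the Salv CKO pools 8 of the 34 measured members rose and 0 fell. The 8 were the licensing genes Cdc6 and Orc6l, the helicase gene Gins1, and the polymerase and clamp genes Pold1, Pola1, Prim2, Rfc5 and Pcna. Over all genes tested 4.92% were called higher and 5.7% lower. That share includes dim genes. When only the 12402 genes above background on all arrays were fitted, 1239 were called higher and 1437 lower. Of the 32 members among them 9 were called higher and 0 lower. The members' median difference was 0.18, and that of all genes was -0.04. Differences above 0 were seen for 26 of 34 members, and for 47% of all genes. Both Salv CKO pools lay above both controls for 19 members and below them for 2, where over all genes this held for 25.2% and 29%. Without adjustment 12 of the 34 members had a limma p under 0.05, all of them higher. Over all genes 12.6% were higher and 14.2% lower at that threshold. None of the 8 calls held when limma was run without its intensity trend (adjusted p = 0.114 for Cdc6 to 0.220 for Gins1, with 0 genes called in all) or with any 1 array left out (adjusted p from 0.195 to 0.248).

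**Figure D1:**
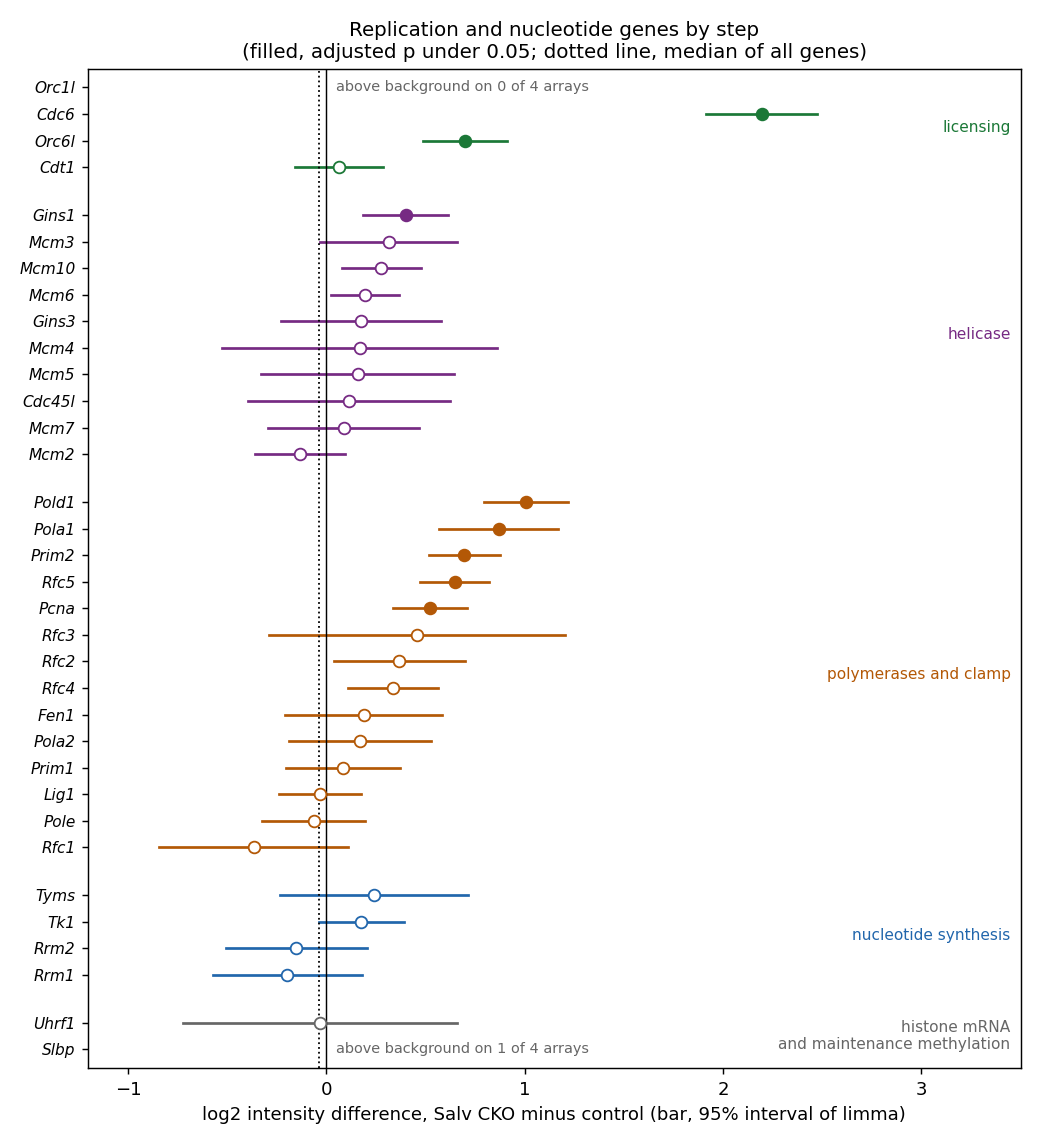
Log2 intensity difference, Salv CKO minus control, of the 34 measured members by step, with the 95% interval from limma as a bar. Filled points are the 8 called genes, which all lie to the right of 0; open points were not called, the dotted line is the median of all genes at -0.04, and Orc1l and Slbp are shown without a point because their probes were not above background on most arrays.

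In the licensing step Cdc6, the loader that brings the Mcm ring to the origin, had the largest difference of the members above background. It was at 10.39 and 10.27 in the Salv CKO pools and at 8.18 and 8.09 in the controls. The groups lay far apart relative to the spread within them, and Cdc6 was 4.58-fold higher in Salv CKO (2.20 ± 0.11, limma adjusted p = 0.00640). Orc6l (now Orc6), the smallest subunit of the origin recognition complex, was at 13.43 and 13.59 in Salv CKO and at 12.77 and 12.84 in the controls. It rose by 0.70 ± 0.08 (limma adjusted p = 0.0143), with no overlap between the groups.

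Cdt1, the partner of Cdc6 in loading the helicase, was at 12.24 and 12.36 in Salv CKO and at 12.31 and 12.17 in the controls. The pools of both groups were interleaved, and the 95% interval of its difference ran from -0.16 to 0.28. Orc1l (now Orc1), the largest subunit of the recognition complex, was not above background on any array, so no fold is given for it. The array thus gave a call for 2 of the 3 licensing genes it could read. Over all genes 4.92% were called higher, and 1239 of the 12402 above background when these were fitted alone.

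**Figure D2:**
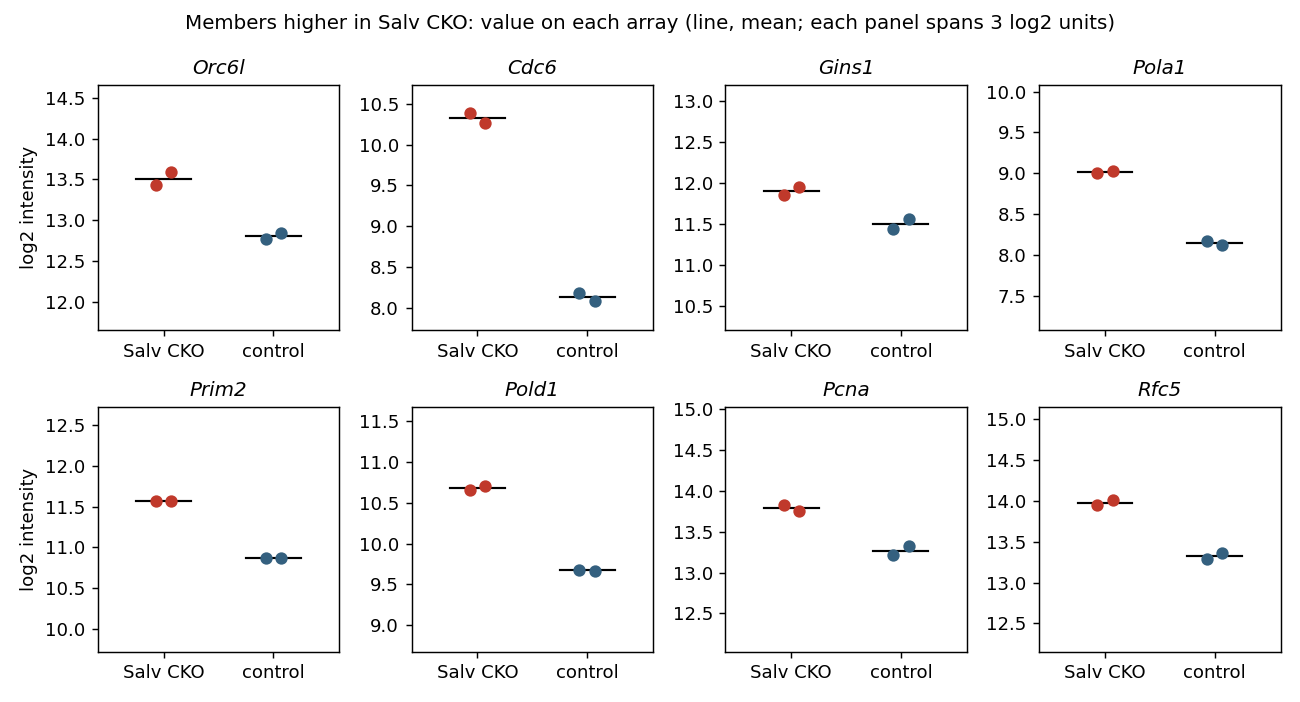
Log2 intensity on each array for the 8 members called higher, with the 2 Salv CKO pools on the left and the 2 control pools on the right of each panel and a line at each mean. Every panel spans 3 log2 units, so the height of the gap can be compared; it is 2.20 for Cdc6 and 0.40 for Gins1, and the groups do not overlap in any panel.

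Of the 10 measured helicase genes 1 rose (10%) and 0 fell, where over all genes 4.92% were called higher and 5.7% lower. All 10 were above background on every array. Of the 12402 such genes 1239 were called higher when fitted alone, a similar share. The median difference of the helicase genes was 0.17, within a range of -0.13 to 0.40. Gins1, a subunit of the GINS complex that holds the helicase at the fork, was at 11.85 and 11.95 in Salv CKO and at 11.44 and 11.56 in the controls. Its rise of 0.40 ± 0.08 was the smallest of the 8 and the nearest to the threshold (limma adjusted p = 0.0473). The call was lost with arrays centred on the median (0.26, adjusted p = 0.0940) or scaled to the 75th percentile (0.29, adjusted p = 0.0747), and with the mean of a gene's probes (adjusted p = 0.0563, with fewer genes called in all).

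Among the subunits of the Mcm ring itself none of the 6 was called. Mcm3 and Mcm6 differed by 0.31 and 0.19. Both Salv CKO pools lay above both controls for each, as for 25.2% of all genes. Mcm6 was at 13.32 and 13.36 in Salv CKO and at 13.11 and 13.18 in the controls (limma adjusted p = 0.143). Mcm2 had the lowest difference of the step (-0.13). It was at 12.14 and 12.30 in Salv CKO and at 12.30 and 12.40 in the controls, and the groups overlapped. Mcm4, Mcm5 and Mcm7 gave 0.17, 0.16 and 0.09. Their intervals (-0.53 to 0.86, -0.33 to 0.64 and -0.29 to 0.47) hold changes of either sign.

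Mcm10, which binds the active helicase and polymerase alpha, was at 11.02 and 10.94 in Salv CKO and at 10.72 and 10.69 in the controls. Its difference of 0.28 ± 0.08 fell short of the threshold (limma adjusted p = 0.0938). The Salv CKO pools lay above the controls, as for 25.2% of all genes. Gins3 and Cdc45l (now Cdc45), the other measured parts of the active helicase, gave 0.17 and 0.12 with no call.

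Of the 14 genes of the polymerases and clamp, the largest step, 5 rose (35.7%) and 0 fell, with a median difference of 0.35. Over all genes 4.92% were called higher and 5.7% lower. All 14 were above background on every array, and of the 12402 such genes 1239 were called higher when fitted alone. The catalytic subunit of DNA polymerase delta, Pold1, extends the lagging strand. It was at 10.66 and 10.70 in Salv CKO and at 9.68 and 9.67 in the controls, 2.01-fold higher in Salv CKO (1.01 ± 0.08, limma adjusted p = 0.00822). The catalytic subunit of polymerase alpha, Pola1, was at 9.00 and 9.03 in Salv CKO and at 8.17 and 8.12 in the controls. It rose by 0.87 ± 0.12 (limma adjusted p = 0.0183). Prim2, the regulatory subunit of the primase bound to it, was at 11.57 on both Salv CKO arrays and at 10.88 and 10.87 on the control arrays (0.70 ± 0.07, limma adjusted p = 0.0111). In each of these genes the pools of a group differed by far less than the groups did.

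The other genes of these enzymes were not called. Pola2 and Prim1, the remaining subunits of the polymerase alpha and primase complex, gave 0.17 and 0.09. Pole, the catalytic subunit of the leading strand polymerase epsilon, was at -0.06, with an interval from -0.32 to 0.20. The interval of Pole lies below that of Pold1, which ran from 0.80 to 1.22; the difference between the genes was not tested.

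The clamp and its loader followed the same split. Pcna was at 13.83 and 13.75 in Salv CKO and at 13.22 and 13.32 in the controls, a rise of 0.52 ± 0.07 (limma adjusted p = 0.0194). Rfc5, a small subunit of the clamp loader, was at 13.95 and 14.01 in Salv CKO and at 13.30 and 13.37 in the controls, a rise of 0.65 ± 0.07 (limma adjusted p = 0.0117). The small subunits Rfc3, Rfc2 and Rfc4 gave 0.46, 0.37 and 0.34 with no call (limma adjusted p = 0.395, 0.151 and 0.0825). For each the Salv CKO pools lay above the controls, as they did for 25.2% of all genes. Rfc1, the large subunit, had the lowest difference of the step. It was at 7.60 and 7.79 in Salv CKO and at 7.90 and 8.22 in the controls. Its difference of -0.37 ± 0.18 did not pass (limma adjusted p = 0.294). Fen1 and Lig1, the nuclease and the ligase that finish Okazaki fragments, gave 0.19 and -0.03, and their groups overlapped.

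None of the 4 nucleotide synthesis genes was called on the probe used for it, and the median difference was 0.01. By limma 0 of them had an unadjusted p under 0.05. Tyms, thymidylate synthase, had the highest difference of the step (0.24, interval -0.23 to 0.72). It was at 7.51 and 7.65 in Salv CKO and at 7.45 and 7.23 in the controls. Rrm1, the large subunit of ribonucleotide reductase, had the lowest difference (-0.20, interval -0.57 to 0.18). It was at 8.07 and 7.99 in Salv CKO and at 8.31 and 8.13 in the controls. The small subunit Rrm2 gave -0.15 and thymidine kinase Tk1 gave 0.18.

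Slbp, which binds the stem loop of histone mRNAs, was above background on 1 control array only, at 4.82, and no fold is given. Uhrf1, which brings the maintenance methyltransferase to newly copied DNA, was at 8.29 and 8.81 in Salv CKO and at 8.30 and 8.86 in the controls, a difference of -0.03 with an interval from -0.72 to 0.66.

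For 7 members the array carried several probes, and 8 probes had been passed over because another probe of the gene was brighter. In a fit over all 29922 probes 5 of these 8 were called higher and 0 lower, where 4.49% of all 4345 passed-over probes were called higher and 1.13% lower. Rrm2 was at 10.84 on both Salv CKO arrays and at 9.57 and 9.39 in the controls on its other probe, 2.57-fold higher in Salv CKO (1.36 ± 0.10, limma adjusted p = 0.0102). The probe used for Rrm2 lay at -0.15, with an interval that ended at 0.21. The difference between probes of a gene was not tested, but these intervals do not overlap.

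Uhrf1 showed the same kind of split: its other probe was at 7.15 and 6.67 in Salv CKO and at 4.78 and 4.86 in the controls (2.09 ± 0.32, limma adjusted p = 0.0341). On that probe the controls were near the background limit of 4 (log2). Rfc2 rose by 1.22 ± 0.13 on its other probe (limma adjusted p = 0.0170), against 0.37 on the probe used. Rfc5 rose on both, by 1.55 ± 0.14 on the other probe and by 0.65 on the probe used. Cdc6 had 3 probes. A second one was at 10.29 and 10.13 in Salv CKO and at 7.97 and 7.93 in the controls (2.26 ± 0.11, limma adjusted p = 0.00889), while the third was at 8.01 and 8.32 in Salv CKO and at 7.98 and 8.13 in the controls (0.11 ± 0.16). For Tk1 and Tyms the other probes gave 0.31 and -0.25, with no call. Which part of a transcript each probe reads is not stated in the sources used here.

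**Figure D3:**
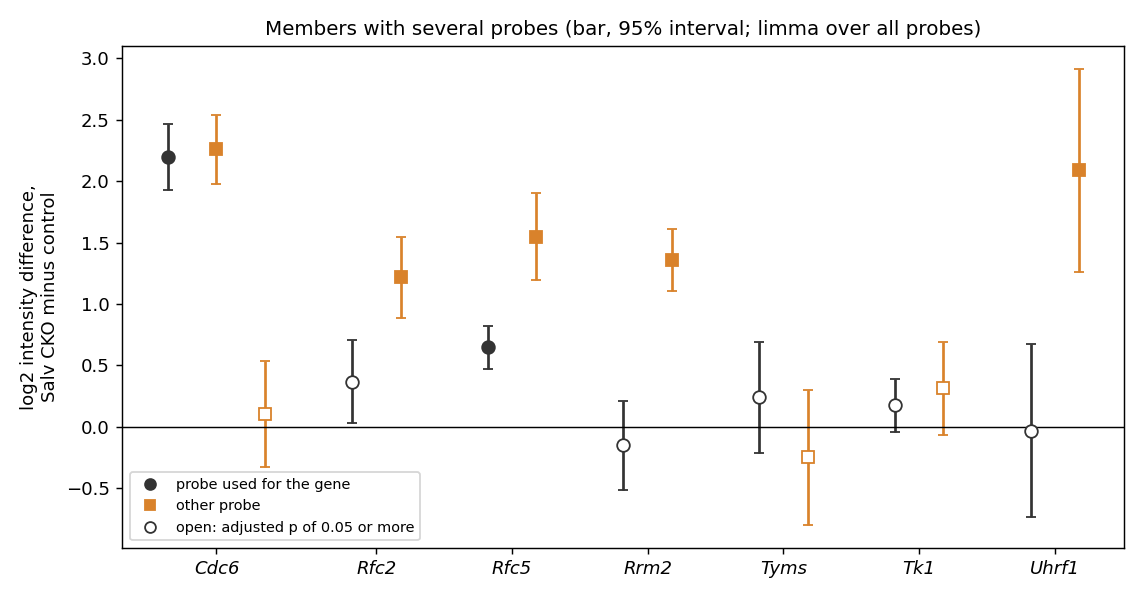
Log2 intensity difference, Salv CKO minus control, for every probe of the 7 members with several probes, with 95% intervals from a limma fit over all probes; circles are the probes used for the genes, squares the others, and filled symbols were called. Rrm2 and Uhrf1 are near 0 on one probe and at 1.36 and 2.09 on the other, and Cdc6 is near 2.2 on a pair of probes and at 0.11 on the third.

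The promoters of members were read for the E2F consensus, since members of several steps were higher together. The letters searched were TTTCCCGC, TTTCGCGC, TTTGCCGC and TTTGGCGC on both strands, where matches on opposite strands can overlap, in 250 bases before to 50 after each start in the RefSeq promoter table (GRCm38.p6). The table held 29 of the 34 measured members, and 13 of them (44.8%) had a match, where 2.6% of its 27025 genes did. A match was found in 3 of the 6 called members in the table and in 10 of the 23 that were not called. For CCAAT, the box bound by NF-Y, on both strands the shares were 65.5% of the members and 41.1% of all genes. The members were listed for their role in replication, so these shares describe that role and were not tested. A match is a description of the letters and not a bound site.

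Below are the promoters of the 3 called members with a match and, for contrast, that of Mcm6, which had 3 matches and was not called; capitals mark the E2F letters on either strand, and positions count from the start at 0. In Cdc6 (chr11:98907901-98908200, + strand) and Pola1 (chrX:93632106-93632405, - strand) the match runs from -138 to -131, and in Pold1 (chr7:44548766-44549065, - strand) it lies after the start, from 39 to 46. In Mcm6 (chr1:128359656-128359955, - strand) the matches begin at -110, -106 and -47, and the first of them overlap.
Cdc6: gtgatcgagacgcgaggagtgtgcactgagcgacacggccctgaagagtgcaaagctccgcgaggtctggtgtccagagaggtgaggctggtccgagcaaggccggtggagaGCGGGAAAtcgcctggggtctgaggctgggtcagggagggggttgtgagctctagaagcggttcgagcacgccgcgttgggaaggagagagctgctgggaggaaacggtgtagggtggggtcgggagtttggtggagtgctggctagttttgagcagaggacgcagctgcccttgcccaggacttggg
Pola1: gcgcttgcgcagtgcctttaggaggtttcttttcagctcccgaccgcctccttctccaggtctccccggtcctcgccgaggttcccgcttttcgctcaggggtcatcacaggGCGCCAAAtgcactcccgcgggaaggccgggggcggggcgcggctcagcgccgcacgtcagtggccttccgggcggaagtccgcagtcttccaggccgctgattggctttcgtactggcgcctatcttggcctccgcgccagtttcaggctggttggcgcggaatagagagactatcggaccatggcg
Pold1: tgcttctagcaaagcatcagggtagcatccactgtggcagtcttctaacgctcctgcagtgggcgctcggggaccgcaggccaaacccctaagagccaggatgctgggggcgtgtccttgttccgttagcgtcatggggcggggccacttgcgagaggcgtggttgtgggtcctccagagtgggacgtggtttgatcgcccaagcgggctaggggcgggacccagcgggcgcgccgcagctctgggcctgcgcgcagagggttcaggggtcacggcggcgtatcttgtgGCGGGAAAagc
Mcm6: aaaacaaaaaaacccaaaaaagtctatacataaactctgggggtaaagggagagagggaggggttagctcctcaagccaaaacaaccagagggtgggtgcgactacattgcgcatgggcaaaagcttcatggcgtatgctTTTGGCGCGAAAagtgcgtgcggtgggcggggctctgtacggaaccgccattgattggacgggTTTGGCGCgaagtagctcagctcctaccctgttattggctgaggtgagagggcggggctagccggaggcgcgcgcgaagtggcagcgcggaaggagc

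Other genes of the same machinery gave a similar median with fewer calls. The 38 measured further replication genes had a median difference of 0.19, and 33 were above background on all arrays. When only such genes were fitted, 1239 of 12402 were called higher. In the fit of all genes 4 of the 38 rose (10.5%, against 4.92% of all genes, dim ones included) and 0 fell. They were Wdhd1, which tethers polymerase alpha to the helicase (0.91 ± 0.10), Orc4l, a subunit of the recognition complex (0.71 ± 0.07), Pold3 of polymerase delta (0.45 ± 0.07) and Pole3 of polymerase epsilon (0.40 ± 0.08), with limma adjusted p from 0.0110 to 0.0486. Wdhd1 was at 9.76 and 9.74 in Salv CKO and at 8.84 on both control arrays.

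Of 27 measured further nucleotide genes 2 rose (7.41%) and 1 fell (3.70%), with a median of 0.06. Over all genes these shares were 4.92% and 5.7%. The purine synthesis enzymes Paics and Adss rose by 0.54 ± 0.07 and 0.42 ± 0.07, and Cad, which starts pyrimidine synthesis, fell by 0.44 on the log2 scale (SE 0.08, limma adjusted p = 0.0380). Of 19 measured mitosis genes 2 rose (10.5%) and 0 fell, with a median of 0.14. These were Cdca8, a subunit of the chromosomal passenger complex (0.82 ± 0.08), and the spindle checkpoint gene Mad2l1 (0.41 ± 0.08). Differences above 0 were seen for 15 of the 19 mitosis genes (78.9%), against 76.5% of the members and 47% of all genes. Mki67 and Top2a, common markers of dividing cells picked after their values were seen, gave 0.06 and -0.23 with no call. Top2a was among the 4 mitosis genes below 0.

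Markers of other tissues moved in the same pools. Of 10 neural and neural crest markers 7 were called higher (70%) and 0 lower, where over all genes 4.92% were higher and 5.7% lower. The median difference of these markers was 2.36, and Sox1, Pax6 and Tcfap2a were not called. Their summed normalised intensity was 56553 to 57530 in Salv CKO and 14031 to 14424 in the controls. Most of that sum was Crabp1, at 15.53 on both Salv CKO arrays and at 13.72 and 13.70 in the controls. Neurog2 and Sox2, both of neural progenitors, rose by 4.40 and 3.71, and Zic1 was above background on both Salv CKO arrays and on 1 of the 2 control arrays. Of 6 somite markers 3 were called higher (50%), with sums of 3599 to 3624 in Salv CKO and 493 to 585 in the controls. Most of these sums was Tcf15, at 11.58 and 11.55 in Salv CKO and at 8.60 and 8.38 in the controls. Pax1, Tbx6 and Myf5 were not called. Of 8 endoderm markers 4 were called higher (50%), with sums of 9117 to 9180 in Salv CKO and 3605 to 3761 in the controls. Myf5 of the somite list was at the floor on 1 array of each group, and no neural or endoderm marker was at the floor on any array.

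Heart muscle markers went the other way: 5 of 12 fell (41.7%, against 5.7% of all genes) and 0 rose (against 4.92%), with a median difference of -0.56. On at least 1 array 5 of the 12 (Myh6, Actc1, Myl2, Myl3 and Myl4) were within 1% of the array's highest intensity, where a difference is compressed; their summed intensity with the rest was 401788 to 408384 in Salv CKO and 444484 to 492273 in the controls, and that of the other 7 was 123828 to 126209 in Salv CKO and 149073 to 185145 in the controls. Of 7 endothelial markers 5 fell (sums of 12981 to 13298 in Salv CKO and 22755 to 23614 in the controls), and of 7 primitive red cell markers 2 fell (104668 to 105125 in Salv CKO and 125326 to 125836 in the controls, or 41395 to 43945 in Salv CKO and 62044 to 64039 in the controls without Hba-x, which was also at the top of the scale); Epb4.2 of that list was at the floor on 1 Salv CKO array. No member was at the top of the scale on any array. The part of these shifts in the members' differences was not tested. In pooled whole hearts, more cells of a kind and more RNA per cell cannot be told apart.

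**Figure D4:**
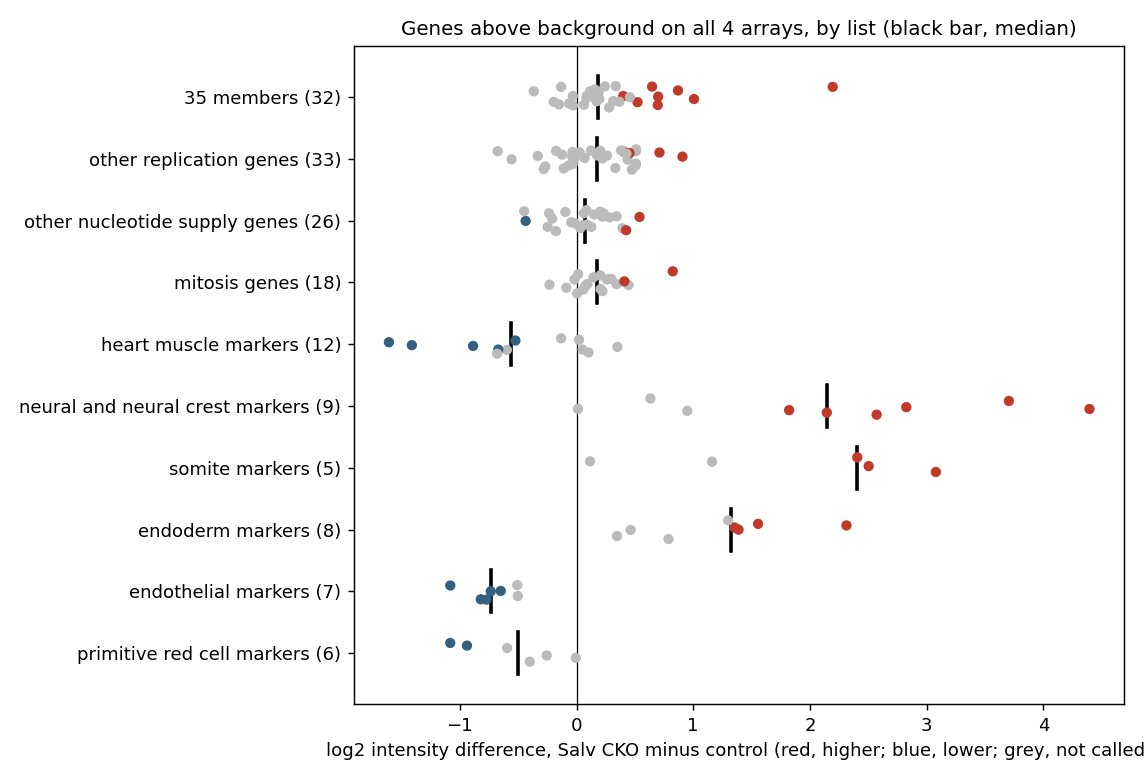
Log2 intensity difference, Salv CKO minus control, of each gene above background on all 4 arrays (number in brackets), by list; red points were called higher, blue points lower, and the black bar is the list's median. The members' median of 0.18 lies between the medians of the neural, somite and endoderm markers on the right and those of the heart muscle, endothelial and red cell markers on the left; the members themselves run from -0.37 to 2.20 and overlap the points of other lists.

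The calls also depended on the scaling. With values as deposited the median difference of the 12402 genes with 4 arrays above background was itself -0.44, and the calls among the members were then 2 higher (Cdc6 and Pold1) and 4 lower (Mcm2, Pole, Lig1 and Rrm2). Of the 32 members above background 26 lay above that median, and 27 lay above the corresponding median after quantile normalisation. Centring each array on its median or dividing it by its 75th percentile shifts all genes of an array alike, so a gene's distance to the median is the same there as with the values as deposited. Higher calls were 46.3% of all calls after quantile normalisation, 35.8% with centring on the median and 6.88% as deposited. With a floor of 16 in place of 1 the calls of Orc6l, Pcna and Gins1 were lost (limma adjusted p = 0.0662, 0.0674 and 0.104). When any 1 array was left out, no gene of the 16675 passed (3172 to 3438 at an unadjusted limma p under 0.05). The differences of the 8 called members ran from 0.33 to 2.27 in these fits. The 8 were chosen on the same arrays, with both Salv CKO pools above both controls. Their positive sign here was therefore largely set by that choice and gives no further support.

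**Figure D5:**
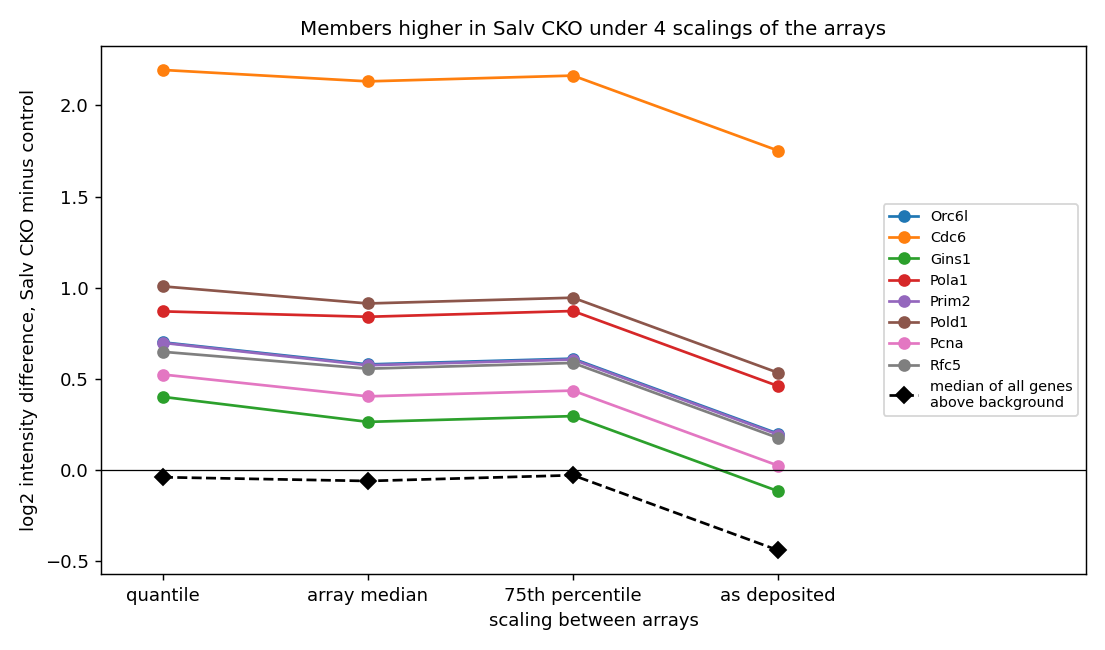
Log2 intensity difference, Salv CKO minus control, of the 8 members called higher, under 4 ways of scaling the arrays; the dashed line is the median of all genes above background. The dashed line is at -0.44 with the values as deposited, where Gins1 is at -0.12 and Pcna at 0.02 while Cdc6 stays at 1.75; the distance of Gins1 to the dashed line is 0.44 after quantile normalisation and 0.32 under each of the others, which differ from each other only by a constant per array.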

How the data were processed

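Per the labels, total RNA of whole hearts was amplified by an amino-allyl method, labelled with Cy5 and read on 4 one-colour arrays. The deposited values are linear probe intensities; the sources used here name no scanner, software or scaling. From the values, the authors' intensities were background-subtracted (3.37 to 5.99% below 0 per array), and each array was multiplied by 1 factor (0.891 to 1.03; 100% of values lay within 0.02 of a whole multiple of it). Median intensities were 71.1 and 76.1 for Salv CKO and 77.5 and 101 for the controls. Precision is limited by the number of arrays.

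The columns were quantile normalised, floored at 1, put on the log2 scale and tested with limma 3.58.1 in R 4.3.3 (lmFit, then eBayes with its trend option; prior degrees of freedom 2.92). Tests were two-sided, with Benjamini-Hochberg adjustment over 16675 genes. The background limit of 16 is about 3 times the noise SD of 4.36 to 6.28. The platform's gene table names 21020 of 29922 probes with 1 symbol; of several probes the one with the highest mean was used. The procedure was tested on simulated data. The rule for named genes covers every member, with array values for those called or at either end of their step, and the largest called genes of the other lists. Members and lists were chosen with earlier results of these data known. Nothing says whether pools came from separate litters, so p-values measure the spread between these pools. Alternatives covered scaling, floor, dim genes, choice of probe, intensity trend, replicate block and leaving out each array. No coordinates of probes are given, since the platform's table names no build.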

Additional observations from a re-analysis of the deposited data

How the results depend on the processing

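Against 8 members and 1772 genes called, a floor of 16 gave 5 members and 481 genes, and a filter on genes above background on all arrays gave 9 members and 2676 genes. The values as deposited called 3330 genes (6 members, 2 of them higher). Without the intensity trend 0 members and 0 genes were called by limma (9 members and 3578 genes at an unadjusted p under 0.05), and with any array left out the counts ranged from 0 to 0 (10 to 12 members unadjusted). The smaller count with a floor comes with many genes set to 1 value; for the others the cause was not tested. Orc1l has no value with a floor of 16, as all its arrays lie there. Sav1 passed with the values as deposited (-0.72, limma adjusted p = 0.0199). There the median difference of genes above background was -0.44, and 3101 of the 3330 calls were lower. That call therefore does not check the labels.

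Sign changes were of members not called, except Gins1. As deposited, with the median of genes at -0.44, the values were -0.42 for Cdt1, -0.17 for Mcm3, -0.15 for Mcm4, -0.37 for Mcm5, -0.27 for Mcm6, -0.36 for Mcm7, -0.21 for Mcm10, -0.32 for Cdc45l, -0.12 for Gins1, -0.19 for Gins3, -0.32 for Pola2, -0.32 for Prim1, -0.14 for Rfc2, -0.17 for Rfc4, -0.33 for Fen1, -0.12 for Tyms and -0.32 for Tk1. Cdt1 was at -0.0444 with arrays centred on their median and at -0.0127 with the 75th percentile. As the mean of their probes Rrm2 was at 0.60, Tyms at -0.00214 and Uhrf1 at 1.03. With 1 array left out, signs varied for Cdt1 (-0.00322 to 0.13), Mcm4 (-0.0935 to 0.43), Mcm5 (-0.0556 to 0.36), Mcm7 (-0.0556 to 0.23), Cdc45l (-0.11 to 0.35), Pola2 (-0.0132 to 0.36), Pole (-0.16 to 0.0271), Lig1 (-0.10 to 0.0363) and Uhrf1 (-0.31 to 0.25).

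The titles number the pools 1 and 2 in both groups. With the replicate number as a block, 8 members and 2211 genes were called and no member's call changed; over 12402 genes the deviations of same-numbered pools correlated at 0.17, which with 2 pairs does not show that the numbers pair the pools.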

Other observations

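The array carried probes of 2 name prefixes, and calls were unevenly spread between them. In the fit over all probes, 5.41% of 5064 probes named mMR were called higher in Salv CKO and 2.90% lower, where 2.94% of 24858 probes named mMC were called higher and 2.95% lower. The median differences were 0.03 and -0.03. Of the 5 passed-over probes of members that were called higher, those of Rrm2, Uhrf1 and Rfc5 and that of Cdc6 were named mMR and that of Rfc2 mMC. The passed-over probes that were not called, of Tyms, Tk1 and again Cdc6, were named mMR too. The mMR name was thus not particular to the called ones. The cause was not tested.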
